A study of Mus musculus with 4 samples.

Results

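The genes described here encode the machinery that makes the lysosome acidic and the proteins that work in it. They were the 21 genes of the table whose names start with Atp6v, subunits of the vacuolar proton pump (V-ATPase), and 27 named genes for lysosomal hydrolases, their activators and lysosomal membrane proteins, 48 of 18674 gene names in all. Cathepsins were not among them. Genes were picked by name with no threshold on a measured value, although earlier results of these data were known. Of the 48 genes, 44 averaged 1 RPKM or more over the libraries (RPKM scales reads to transcript length and library size; the table names no unit, and its values behave as RPKM), and the 4 below that were all V-ATPase genes.

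Polyadenylated RNA of mouse lumbar spinal cord was sequenced in 4 libraries, 1 for each condition: WT and G93A mice, each with vehicle or with SD (named WT vehicle, G93A vehicle, WT + SD, G93A + SD). G93A mice carry a mutant human SOD1 transgene in many copies under its own human promoter and model amyotrophic lateral sclerosis (ALS), and WT mice lack it. SD is spermidine, a natural polyamine, given for 30 days before the tissue was taken at 100 days of age, and vehicle mice received PBS. The G93A mice were of the H1 high-expresser line on a B6/SJLF1 background, and the study's methods describe treatment in males only. How many animals went into a library is not given in the sources used here. Runs of 4 values below are in the order vehicle and SD for WT, then vehicle and SD for G93A. With 1 library per condition there is no replicate check, so every fold below compares libraries and carries no p-value. The human transgene has no name of its own in the table, and labelled genotypes were not checked with it. Chat, a marker of cholinergic neurons such as motor neurons, was present in every library, at 9.83, 8.57, 6.55 and 4.33 RPKM.

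Lysosomes break down proteins, lipids and sugars taken up from outside or delivered by autophagy. The V-ATPase pumps protons into them, using a cytosolic V1 sector that hydrolyses ATP and a membrane V0 sector through which the protons pass, and the acid it makes lets the hydrolases work. Several subunits are encoded by more than 1 gene with different tissue use. Inherited loss of many of the hydrolases causes lysosomal storage disease, which often affects the nervous system, and phagocytic cells such as microglia are rich in lysosomes.

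In G93A vehicle against WT vehicle, 14 of the 27 hydrolase, activator and membrane genes were at least 1.5-fold higher and 0 were lower, whereas 3 of the 21 V-ATPase genes were higher and 1 was lower. Among all names 14.4% were at least 1.5-fold higher and 5.31% were lower in the same comparison, while 51.9% of the hydrolase group were higher. For the V-ATPase genes, 14.3% higher and 4.76% lower, the shares were near those of all names. In G93A + SD against WT + SD, a pair that shares no library with the first, 17 of the 27 and 3 of the 21 were higher, and 0 and 2 were lower. There 17.1% of all names were higher and 7.82% lower. The median log2 fold change of the hydrolase group was 0.60 in the vehicle pair and 0.78 in the SD pair, and that of all names was 0.05 in each. For the V-ATPase genes it was -0.15 and -0.19, but in the vehicle pair it was -0.039 over the genes averaging 1 RPKM or more and -0.046 when 1 RPKM was the pseudocount.

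Of the 48 genes, 29 had both G93A libraries above both WT libraries, 13 had both below, and 6 overlapped. Among all names 39.7% lay above and 28% below in this way. The hydrolase group held 23 of the 29, and its exceptions were Ids and Mcoln1 below and Gaa and Neu1 overlapping. The V-ATPase group held 11 of the 13. In the plot of levels by library, most enzymes show the WT symbols together on the left and the G93A symbols together on the right, and most pump subunits show 4 symbols close to each other.

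**Figure D1:**
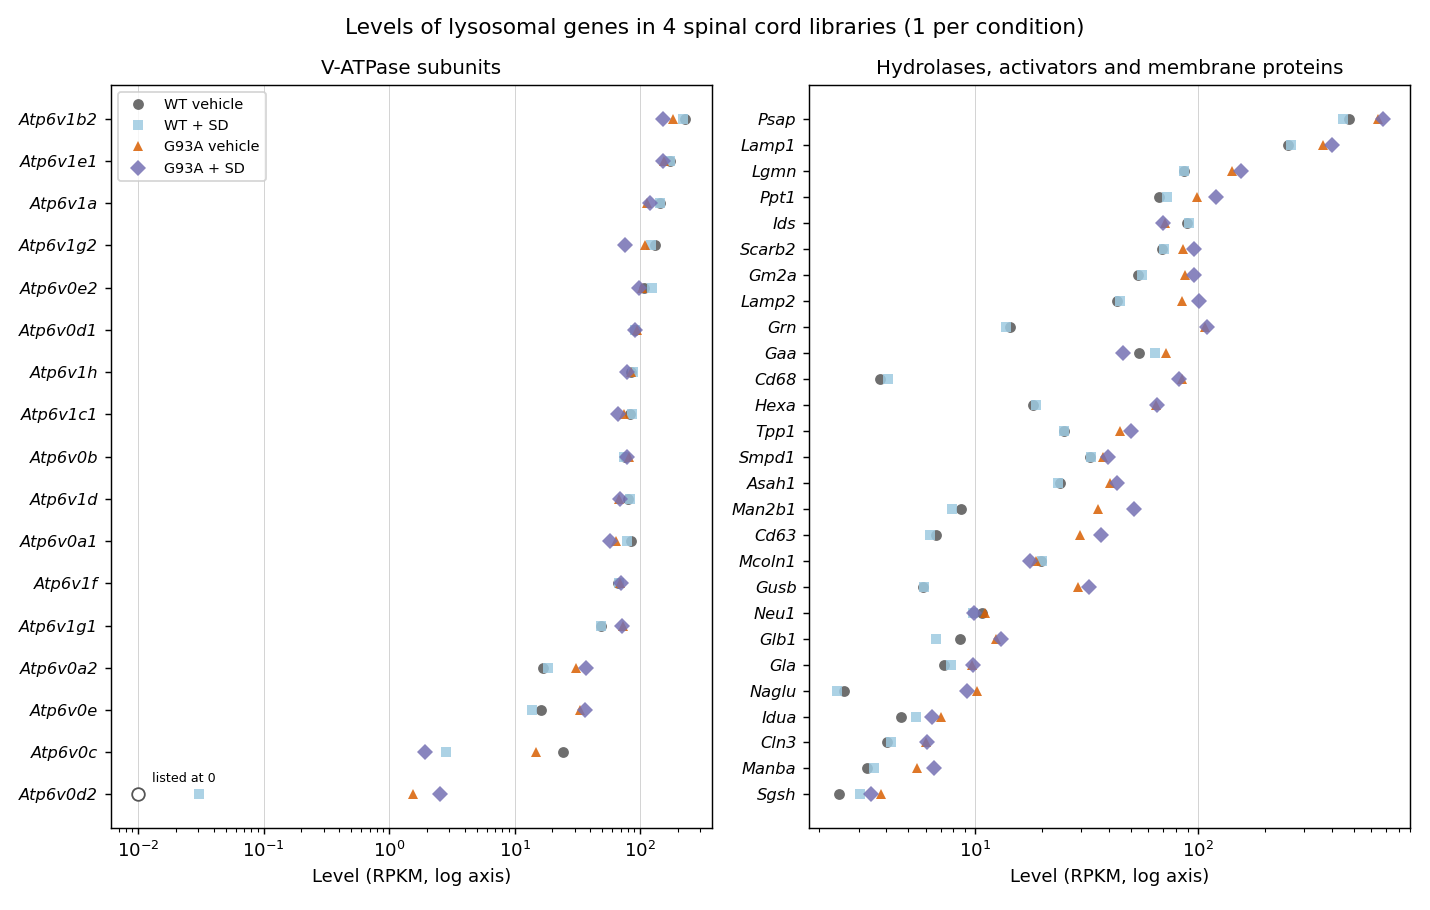
Level of each gene in the 4 libraries, in RPKM on a log axis, for the 44 genes averaging 1 RPKM or more, ordered by mean within each panel. Each symbol is 1 library, and the open circle at the left edge stands for Atp6v0d2 in WT vehicle, which is listed at 0 and has no place on a log axis. Cd68, Grn, Gusb, Cd63, Man2b1, Naglu and Hexa show the widest gap between the genotypes in the right panel, and Atp6v0c is the gene whose SD libraries lie apart from its vehicle libraries.

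Summed over the group, the hydrolase, activator and membrane genes came to 1399 and 1397 RPKM in WT and to 2209 and 2359 in G93A, so the G93A vehicle sum was 1.58 times and the G93A + SD sum 1.69 times that of WT vehicle. The V-ATPase genes came to 1455, 1436, 1357 and 1258 RPKM, or 0.933 and 0.864 times WT vehicle in the G93A libraries. The sum of all names was itself 1.07 and 1.08 times WT vehicle in those libraries. In bulk tissue, more cells of a type and more RNA per cell cannot be told apart, nor can fewer cells and less RNA.

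Sums of several cell type marker lists differed between the same libraries. The summed level of 12 microglia and macrophage markers was 198, 178, 1088 and 1211 RPKM. Each of the 12 had both G93A libraries above both WT libraries, and 10 in the vehicle pair and 11 in the SD pair were at least 1.5-fold higher. The 8 astrocyte markers summed to 2179, 2038, 4241 and 4724 RPKM, of which Gfap alone made 441, 386, 2269 and 2707, and 5 of the 8 had both G93A libraries above both WT libraries and 1 had both below. The sum of the 8 neuron markers was lower in G93A, at 2275 and 2268 in WT and 1587 and 1404 in G93A, with 7 of 8 below and Gap43 above. The sum of the 8 motor neuron markers was 1019, 987, 567 and 378, with 7 of 8 below and Isl1 above. Most of that sum came from the neurofilament genes Nefm, at 612, 603, 347 and 234, and Nefh, at 327, 313, 160 and 99.2. Oligodendrocyte markers summed to 9038, 9317, 7530 and 6943 RPKM, with 5 of 8 below in both G93A libraries and Cldn11 above at 194.8, 216.7, 325.7 and 327.2, and endothelial markers to 33.6, 30.8, 31.1 and 23.7. Blood markers summed to 28.0, 56.4, 41.9 and 45.7. Markers of infiltrating myeloid and lymphoid cells summed to 0.963, 1.01, 2.45 and 1.05 RPKM, highest in G93A vehicle. Those of skeletal muscle stayed between 0.276 and 0.350 in sum. The part of these cell types in the lysosomal differences was not tested.

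**Figure D2:**
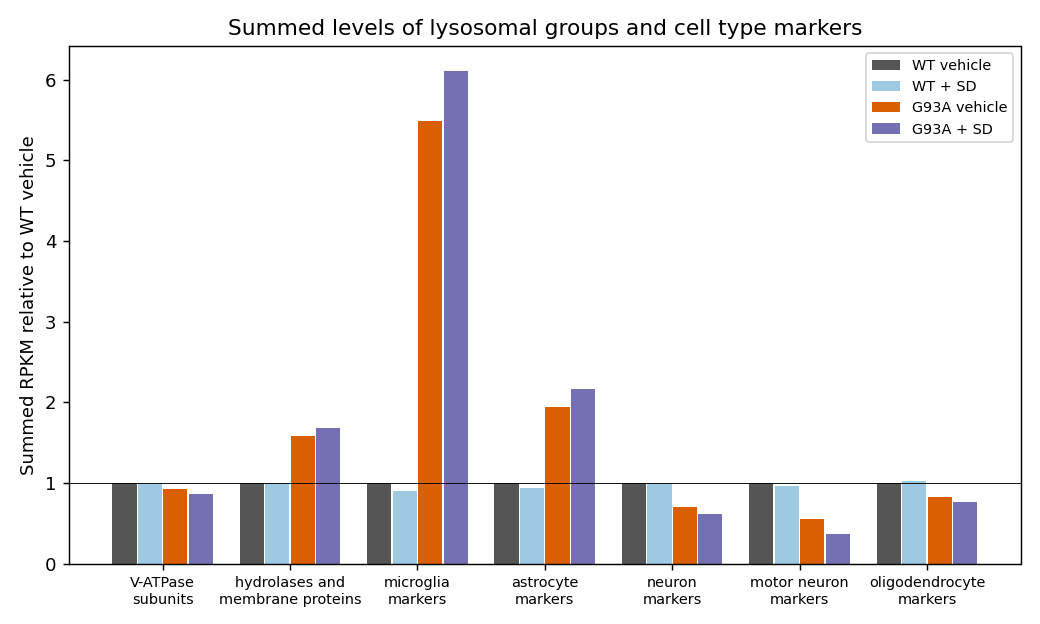
Summed RPKM of each gene group, divided by the sum in WT vehicle, for the 4 libraries. Bars start at 0 and the line marks the level of WT vehicle. In the G93A libraries the hydrolase group stands at 1.58 and 1.69 and the V-ATPase subunits at 0.933 and 0.864. The microglia markers stand at 5.49 and 6.11, and all names, not drawn, at 1.07 and 1.08.

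Among the membrane proteins Cd68 and Cd63 had the widest genotype gaps. Cd68, a heavily glycosylated late endosomal and lysosomal protein that is widely used to mark macrophages and activated microglia, lies on chromosome 11 at 69664213 to 69666153 (minus strand, GRCm38). It measured 3.75 RPKM in WT vehicle and 4.06 in WT + SD, against 85.2 in G93A vehicle and 82.6 in G93A + SD. That is 22.7-fold in the vehicle pair and 20.3-fold in the SD pair, with no overlap of the genotypes. Cd63, a tetraspanin of late endosomes and secreted vesicles, stood at 6.69 and 6.28 RPKM in WT and at 29.5 and 36.6 in G93A, 4.41-fold and 5.83-fold higher. Of the 53-base windows in the Cd63 transcript 36.5% also occur in its pseudogene Cd63-ps (19.7% of 108-base windows), so its reads may be divided between them.

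The Lamp genes encode the most abundant glycoproteins of the lysosomal membrane. Lamp2, which also serves chaperone-mediated autophagy, was at 43.3 and 44.8 RPKM in WT and at 84.9 and 101 in G93A, 1.96-fold and 2.25-fold higher. Lamp1 stood at 255 and 262 RPKM in WT and at 363 and 402 in G93A, 1.42-fold in the vehicle pair and 1.54-fold in the SD pair, on either side of the 1.5-fold line. Both genes kept the genotypes apart. The receptor that carries glucocerebrosidase to the lysosome, Scarb2, was 1.23-fold and 1.36-fold apart, at 69.2, 70.6, 85.3 and 96.0 RPKM. Cln3, mutated in juvenile Batten disease, came to 4.01, 4.197, 6.01 and 6.07 RPKM, just inside the line in both pairs at 1.499-fold and 1.45-fold. Mcoln1, the lysosomal calcium channel, gave no such gap, with 19.8 and 20.1 RPKM in WT and 18.9 and 17.7 in G93A.

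Among the 10 glycosidases, enzymes that remove sugars from glycolipids, glycoproteins and glycosaminoglycans, 5 were at least 1.5-fold higher in the vehicle pair and 6 in the SD pair, where 14.4% and 17.1% of all names were. Gusb, beta-glucuronidase, stood at 5.83 and 5.91 RPKM in WT and at 29.1 and 32.3 in G93A, 4.99-fold and 5.47-fold higher. Man2b1, the lysosomal alpha-mannosidase, was at 8.64 and 7.89 in WT, 35.6 in G93A vehicle and 51.9 in G93A + SD, or 4.12-fold and 6.58-fold. Naglu, which degrades heparan sulfate, came to 2.58 and 2.39 in WT and to 10.2 and 9.20 in G93A, 3.96-fold and 3.84-fold. Each of these enzymes had its G93A libraries far above its WT libraries.

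Hexa, the alpha subunit of beta-hexosaminidase whose loss causes Tay-Sachs disease, measured 18.1, 18.7, 65.0 and 65.3 RPKM, 3.59-fold and 3.49-fold higher in G93A. Manba, the beta-mannosidase, was at 3.26, 3.52, 5.50 and 6.55 RPKM, 1.69-fold and 1.86-fold higher. Glb1, the beta-galactosidase of the lysosome, passed 1.5-fold only in the SD pair, at 8.54, 6.69, 12.5 and 13.05 RPKM, or 1.46-fold and 1.95-fold. The WT libraries of Glb1 differed from each other by 1.28-fold, which widens the fold of the SD pair. For Idua, which acts on heparan and dermatan sulfate, the values were 4.67, 5.43, 7.04 and 6.41 RPKM, and with the pseudocount its 1.51-fold in the vehicle pair lay just inside the line. Gla, the alpha-galactosidase lost in Fabry disease, stood at 7.26, 7.78, 9.70 and 9.79. Neu1, the lysosomal sialidase, had overlapping genotypes, at 10.7, 9.78, 11.1 and 9.87 RPKM.

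Gaa, the acid alpha-glucosidase that degrades glycogen and is lost in Pompe disease, had its G93A libraries at both ends of its range. It lies on chromosome 11 at 119267887 to 119285454 (plus strand, GRCm38). Its level was 54.5 RPKM with vehicle and 64.5 with SD in WT, and 72.1 with vehicle and 46.3 with SD in G93A. G93A vehicle was therefore the highest of the libraries and G93A + SD the lowest, with a genotype fold of 1.32 in the vehicle pair and 0.718 in the SD pair. Sgsh, another enzyme gene of the same chromosome region, 57970 bases away, stood at 2.46, 3.06, 3.77 and 3.41 RPKM, and its G93A libraries were 1.53-fold and 1.12-fold above the matched WT libraries.

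The iduronate sulfatase Ids, lost in Hunter disease, was an enzyme with both G93A libraries below WT, at 89.8 and 91.5 RPKM in WT and at 71.4 and 69.7 in G93A, or 0.795-fold and 0.762-fold. This was short of the 1.5-fold line. Among the lipid-degrading enzymes, the acid ceramidase Asah1 measured 24.1, 23.6, 40.5 and 43.5 RPKM, 1.68-fold and 1.84-fold higher in G93A. The palmitoyl-protein thioesterase Ppt1 stood at 67.1, 73.0, 99.6 and 120 RPKM, 1.48-fold and 1.65-fold. The acid sphingomyelinase Smpd1, by contrast, came to 32.8, 33.2, 37.5 and 39.4 RPKM, 1.14-fold and 1.19-fold.

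Both peptidases were higher in G93A. Tpp1, which removes tripeptides from protein ends and is lost in a late-infantile form of Batten disease, was at 25.1 and 25.2 RPKM in WT and at 44.6 and 50.04 in G93A, 1.78-fold and 1.99-fold. Lgmn, legumain, an asparaginyl endopeptidase that also processes cathepsins, was at 86.4 and 86.9 in WT and at 143 and 156 in G93A, 1.65-fold and 1.80-fold. In neither gene did the WT libraries differ by more than 1.01-fold.

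The activators hold lipids or enzymes in a form that can be degraded or can act. Grn encodes progranulin, a secreted and lysosomal glycoprotein whose partial loss causes frontotemporal dementia, and lies on chromosome 11 at 102430315 to 102437048 (plus strand, GRCm38). It was at 14.4 and 13.8 RPKM in WT and at 108 and 110 in G93A, 7.51-fold and 7.94-fold higher, the widest genotype gap after Cd68 among genes detected in every library. Gm2a, the activator that presents GM2 ganglioside to beta-hexosaminidase, stood at 54.0, 56.0, 87.5 and 96.2 RPKM, 1.62-fold and 1.72-fold. Psap, the saposin precursor and the most abundant of the 48 genes, came to 477, 446, 643 and 679 RPKM, 1.35-fold in the vehicle pair and 1.52-fold in the SD pair.

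In the V1 sector none of the 12 genes was at least 1.5-fold higher in either genotype comparison, and the lower ones were Atp6v1g2 and the barely detected Atp6v1e2, both in the SD pair. Among all names 14.4% were higher and 5.31% lower in the vehicle pair, and 17.1% and 7.82% in the SD pair. Atp6v1a, the catalytic A subunit, was at 145 and 145 RPKM in WT and at 114 and 119 in G93A, or 0.788-fold and 0.823-fold. Atp6v1b2, the brain form of the B subunit, was the most abundant pump gene, at 226, 220, 183 and 153 RPKM, or 0.809-fold and 0.694-fold. Atp6v1e1, a peripheral stalk subunit, stood at 174, 172, 156 and 151 RPKM, Atp6v1c1 at 83.4, 86.3, 74.9 and 66.1, and Atp6v1d, of the central stalk, at 80.6, 83.0, 68.0 and 68.5. These 5 genes had both G93A libraries below both WT libraries, each by less than 1.5-fold. For Atp6v1f, at 66.8 to 70.0 RPKM and with 16.4% of its 53-base windows (3.52% of 108-base windows) found in other genes, and Atp6v1h, at 79.1 to 87.4, the libraries lay within 1.11-fold of each other in either genotype pair, and the direction in the vehicle pair turned with the scaling of the libraries.

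Where several genes encode 1 subunit, their shares of its RNA differed by genotype more than the total did for subunits a and e. Subunit a anchors the pump and directs it to its membrane. Atp6v0a1, its neuronal and synaptic form, was at 84.0 and 78.5 RPKM in WT and at 64.7 and 57.8 in G93A, 0.770-fold and 0.737-fold. Atp6v0a2, the form of endosomes and Golgi (chromosome 5, 124628576 to 124724455, plus strand), was at 16.9 and 18.4 in WT and at 31.1 and 36.8 in G93A, 1.84-fold and 1.996-fold higher. The a2 gene so made up 16.7% and 18.9% of subunit a RNA in WT and 32.4% and 38.7% in G93A, out of summed levels of 101, 97.3, 96.1 and 94.9 RPKM. The a3 gene, which carries the name Tcirg1 and is the osteoclast form, is outside the 48. Counted with them, it stood at 4.55, 3.99, 10.4 and 9.98 RPKM and took 4.29%, 3.94%, 9.78% and 9.51% of an a total between 101 and 107 RPKM. Atp6v0a4, the kidney form, stayed between 0.283 and 0.385 RPKM.

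Subunit G, of the peripheral stalk, has a widely used gene and a neuronal one. Atp6v1g1, the widely used gene, was at 49.0 and 48.4 RPKM in WT and at 73.0 and 71.9 in G93A, just inside the 1.5-fold line at 1.49-fold and 1.48-fold, and shares 18.4% of its 53-base windows (6.61% of 108-base windows) with transcripts of other genes. Atp6v1g2, the neuronal gene, stood at 131, 122, 109 and 75.5 RPKM, 0.835-fold in the vehicle pair and 0.619-fold in the SD pair. The share of Atp6v1g1 was 27.3% and 28.4% in WT, 40.1% in G93A vehicle and 48.8% in G93A + SD.

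For subunit e, a small membrane protein of V0, Atp6v0e was at 16.3 and 13.8 RPKM in WT and at 32.9 and 36.2 in G93A, 2.02-fold and 2.62-fold higher. Its partner Atp6v0e2, which is strongly expressed in brain, was at 107, 124, 104 and 98.1 RPKM, 0.973-fold and 0.793-fold. Atp6v0e so made up 13.2% and 10.1% of the e total in WT and 24.1% and 27.0% in G93A. Atp6v0a2, Atp6v1g1 and Atp6v0e each had a larger share in both G93A libraries than in either WT library, though none reached the share of its main partner gene, and the summed neuron markers were lower and the summed microglia and astrocyte markers higher in those same libraries. The part of these cell types in the shares was not tested.

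**Figure D3:**
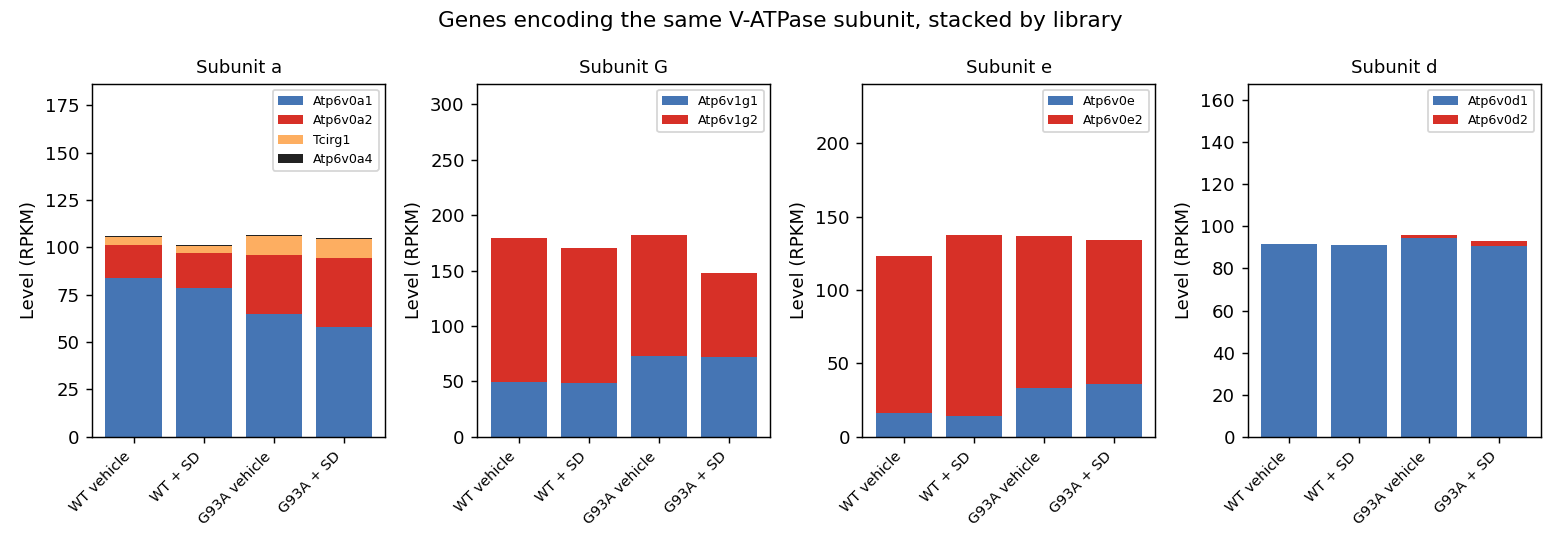
Stacked levels, in RPKM, of the genes that encode subunits a, G, e and d, 1 bar per library and each axis starting at 0. The share of Atp6v0a2 goes from 16.7% and 18.9% in WT to 32.4% and 38.7% in G93A, that of Atp6v1g1 from 27.3% and 28.4% to 40.1% and 48.8%, and that of Atp6v0e from 13.2% and 10.1% to 24.1% and 27.0%.

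Subunit d couples the stalk to the membrane ring. Atp6v0d1, the general form, was at 91.4, 91.3, 94.3 and 90.6 RPKM, and its direction in the vehicle pair turned with the scaling of the libraries. Atp6v0d2, known from osteoclasts and macrophages (chromosome 4, 19876841 to 19922605, minus strand), was listed at 0 in WT vehicle and at 0.0304 RPKM in WT + SD, against 1.56 in G93A vehicle and 2.53 in G93A + SD. These levels correspond to an estimated 0, 2.95, 151 and 248 read pairs, so the gene was at or near the limit of detection in both WT libraries and no genotype fold is given. Even in G93A + SD it was 2.72% of subunit d RNA. Atp6v1b1, Atp6v1c2 and Atp6v1e2, the other forms of subunits B, C and E with a kidney, lung or testis use, stayed at or below 0.128 RPKM, and their partner genes made up between 99.9% and 100% of each subunit.

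Atp6v0c encodes the c subunit, of which several copies form the proton-carrying ring, and lies on chromosome 17 at 24163866 to 24169702 (minus strand, GRCm38). It was at 24.1 RPKM in WT vehicle and 14.8 in G93A vehicle, against 2.82 in WT + SD and 1.94 in G93A + SD. An estimated 1050 and 666 read pairs lie behind the vehicle values, and 128 and 88.7 behind the SD values. Both SD libraries were below both vehicle libraries, 8.54-fold lower in WT and 7.63-fold lower in G93A, while the genotypes overlapped. Its genotype fold was 0.615 in the vehicle pair, which made it the pump gene counted as lower there, and 0.688 in the SD pair. The other V0 subunits that the pump cannot do without did not share this pattern: Atp6v0b, the related c'' subunit, stood at 75.2, 74.6, 80.8 and 79.1 RPKM. Of the 53-base windows of Atp6v0c, 31.8% also occur in the pseudogenes Atp6v0c-ps2 or Atp6v0c-ps1 (23.2% of 108-base windows), and its 24.1 RPKM or less compares with 226 RPKM for Atp6v1b2 and 75.2 for Atp6v0b in WT vehicle. The part of shared reads in the values of Atp6v0c was not tested.

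Between SD and vehicle libraries, the shares of these genes past 1.5-fold were near those of all names. In WT + SD against WT vehicle, 0 of 48 were at least 1.5-fold higher and only Atp6v0c was lower (2.08%), where 2.25% and 2.8% of all names were higher and lower. In G93A + SD against G93A vehicle only Atp6v0d2 was higher (2.08%), and Atp6v0c and Gaa were lower (4.17%), where 2.97% and 2.55% of all names were. The median log2 fold change was 0.03 in WT and 0.07 in G93A for the hydrolase group. As a measure of the spread between libraries of one genotype, 95% of all names averaging 1 RPKM or more lay within 1.30-fold in the WT pair and within 1.35-fold in the G93A pair. In WT, Atp6v0c and Atp6v0d2 were past that mark, the latter with fewer than 3 estimated read pairs. In G93A, 5 genes were past it. Atp6v0c and Gaa were lower, and so was Atp6v1g2, at 109 RPKM in vehicle and 75.5 in SD or 1.45-fold. Man2b1, at 35.6 and 51.9 RPKM or 1.46-fold, and Atp6v0d2, at 1.56 and 2.53 RPKM or 1.62-fold, were higher, but Atp6v0d2 was no longer past 1.5-fold when 1 RPKM was the pseudocount. In that same pair the motor neuron markers summed to 567 RPKM in vehicle and 378 in SD, mostly from Nefm and Nefh. The microglia markers summed to 1088 and 1211, and the part of either list in these differences was not tested.

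**Figure D4:**
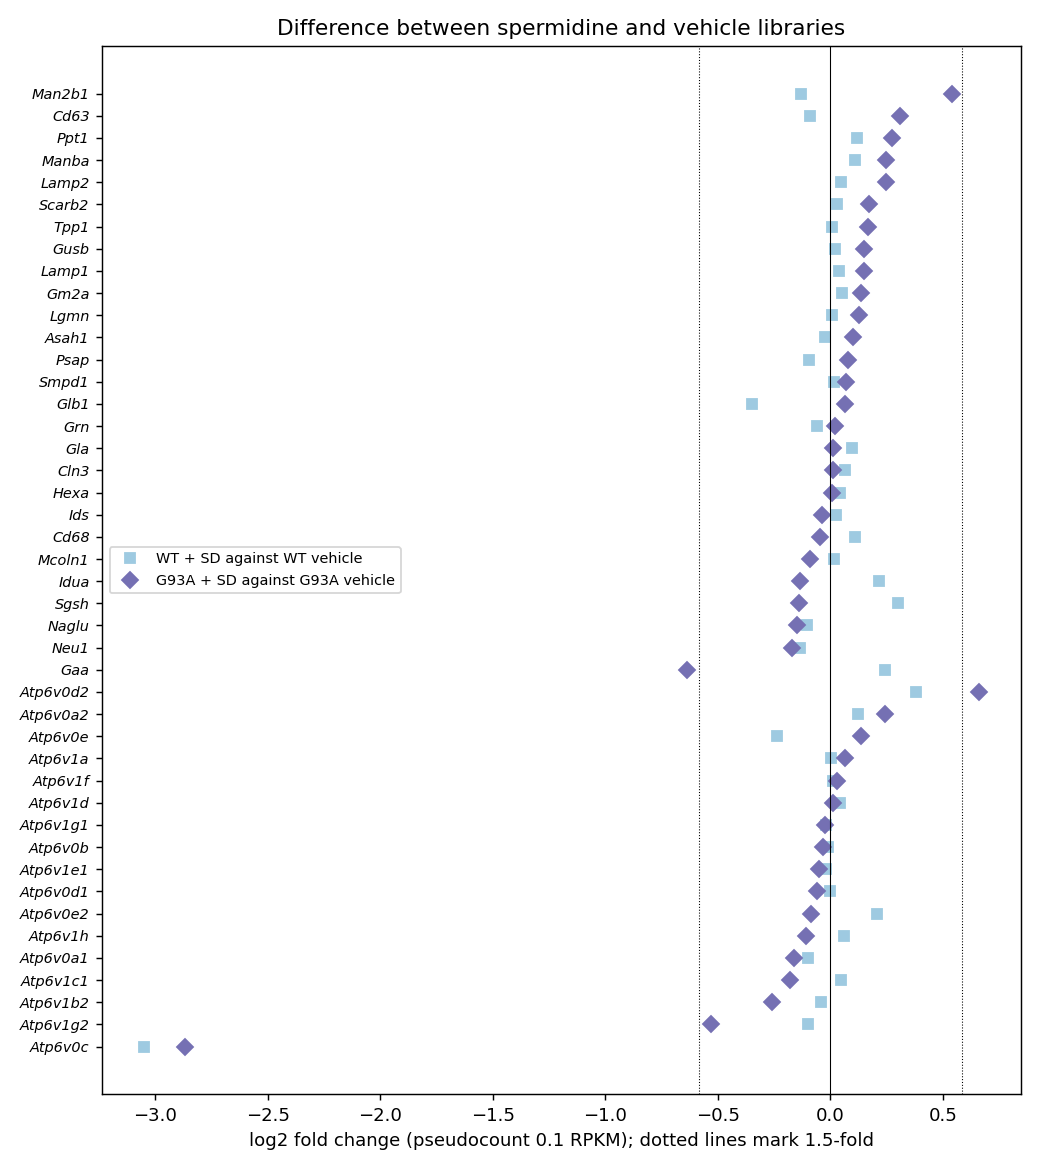
Log2 fold change between SD and vehicle libraries, computed with a pseudocount of 0.1 RPKM, for the 44 genes averaging 1 RPKM or more; squares are the WT pair, diamonds the G93A pair, and the dotted lines mark 1.5-fold. Most symbols lie inside the lines, Atp6v0c lies far to the left in both pairs, Gaa lies on opposite sides of 0, and the place of Atp6v0d2 in the WT pair reflects the pseudocount.

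Of the 44 genes averaging 1 RPKM or more, 41 (93.2%) had the same sign in the vehicle pair and the SD pair, beside 84.9% of all names at that level. The Pearson correlation of their log2 fold changes across these genes was 0.98, beside 0.92 across all names at that level, given as a description because genes are not independent replicates. Atp6v0d2 is among the 44 only through its G93A libraries, and its place in this correlation depends on the pseudocount. Across the 27 hydrolase, activator and membrane genes alone the correlation was 0.97. Gaa had the largest disagreement, 0.88 on the log2 scale. Between the WT and G93A treatment pairs, which also share no library, 28 of the 44 genes had the same sign, as did 7041 of 12987 names. Among all names 11.6% were at least 1.5-fold higher in both comparisons. The 16 of the 48 genes (33.3%) that were so were Cd68, Grn, Gusb, Cd63, Man2b1, Naglu, Hexa, Lamp2, Tpp1, Lgmn, Asah1, Manba and Gm2a, and the pump genes Atp6v0d2, Atp6v0e and Atp6v0a2.

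**Figure D5:**
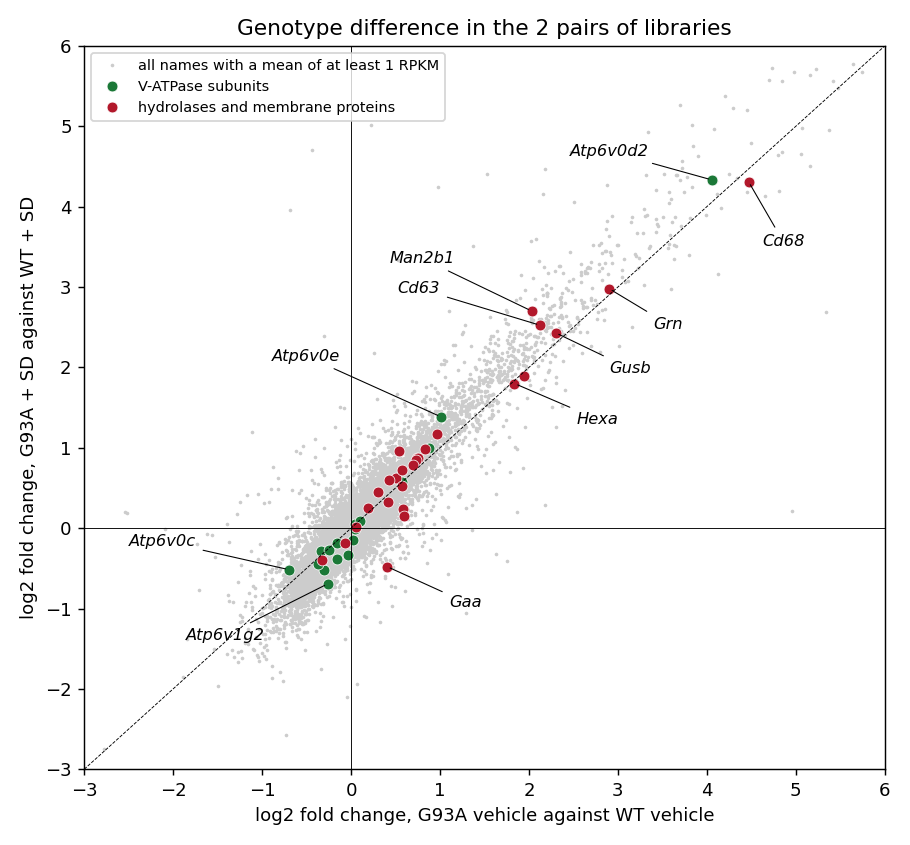
Log2 fold change of G93A against WT in the SD pair (y axis) and in the vehicle pair (x axis), with a pseudocount of 0.1 RPKM; grey points are all names averaging 1 RPKM or more, 13 of which lie outside the axes, and the dashed line marks equal values. The hydrolase group lies mainly in the upper right quadrant, most V-ATPase subunits lie near or below 0, Gaa is on opposite sides of 0, and the place of Atp6v0d2 depends on the pseudocount.

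The promoter windows of these genes, 250 bases before to 50 bases after the start in RefSeq (GRCm38.p6), were read for 41 of the 48. Windows were lacking for Atp6v1b2, Atp6v1c1, Atp6v1g1, Atp6v1h, Atp6v0a2, Atp6v0d2 and Asah1. TFEB and its relatives, which drive lysosomal genes, bind E-boxes of the CLEAR type, and their letters were searched for. CACGTG, a palindrome that reads alike on both strands, was in a window of 13 of the 41 genes (31.7%) and of 8.09% of 27025 genes. The longer TCACGTGA, also a palindrome, which contains it, was in 6 of the 41 genes (14.6%) and in 1.12% of all. GAGGAAGT, letters of the kind that the macrophage factor PU.1 binds, searched on both strands, was in Gla and Gusb (4.88%) and in 3.69% of all. A match is a description of the letters and not a site, and binding was not measured.

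The windows with TCACGTGA belonged to Atp6v0d1, Atp6v0e, Atp6v1a, Cln3, Gla and Mcoln1, of which only Atp6v0e was at least 1.5-fold apart between genotypes. CACGTG without the flanking letters was in Atp6v0b, Gaa, Glb1, Lamp1, Lgmn, Naglu and Sgsh. Of the 7 enzyme and membrane genes with the widest genotype gap (Cd68, Grn, Gusb, Cd63, Man2b1, Naglu and Hexa), only Naglu held CACGTG. The sequences below show the match in the genes with several forms or with a genotype difference, each as 30 bases from 5′ to 3′ on the strand of the gene, with the motif in capitals:
Atp6v0d1, chr8:105566050-105566079, minus strand, upstream of the gene: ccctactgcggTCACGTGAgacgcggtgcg
Atp6v0e, chr17:26676387-26676416, plus strand, UTR: tagcgcgccgaTCACGTGAgcctctgttga
Glb1, chr9:114401018-114401047, plus strand, upstream of the gene: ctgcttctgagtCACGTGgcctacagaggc
Lamp1, chr8:13159088-13159117, plus strand, upstream of the gene: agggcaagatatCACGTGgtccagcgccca
Lgmn, chr12:102439124-102439153, minus strand, intron: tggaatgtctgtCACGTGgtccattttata
Naglu, chr11:101070009-101070038, plus strand, UTR: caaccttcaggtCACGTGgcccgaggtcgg
Sgsh, chr11:119355522-119355551, minus strand, UTR: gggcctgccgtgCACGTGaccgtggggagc
Lamp1 had 4 such matches in its window, of which the first is shown. Naglu begins 6292 bases past the end of Atp6v0a1 on the same strand, and these neighbours stood on opposite sides, Naglu 3.96-fold higher and Atp6v0a1 at 0.770-fold in the vehicle pair.

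Of 31 further hydrolases and lysosomal transporters outside the 48, 15 were at least 1.5-fold higher and 0 lower in the vehicle pair, where 14.4% and 5.31% of all names were, and 18 and 0 in the SD pair, where 17.1% and 7.82% were. Their sum was 552, 558, 1074 and 1189 RPKM. Among those averaging 1 RPKM or more, the widest gap in the vehicle pair was that of Ifi30, a lysosomal thiol reductase of antigen-presenting cells, at 1.92, 2.25, 13.7 and 15.1 RPKM. Laptm5, a lysosomal membrane protein of blood cells, followed at 11.2, 9.18, 58.0 and 63.9. Below that level Acp5, an acid phosphatase known from osteoclasts and named after its values were seen, stood at 0.0293, 0.117, 1.66 and 1.09. The list of 31 and the 12 microglia markers have 1 gene in common.

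Of 13 V-ATPase accessory and assembly genes, 1 was higher (Tcirg1) and 1 lower (Dmxl2) in the vehicle pair, and 1 and 2 in the SD pair, where Wdr7 was the other lower gene, shares near or below those of all names except for the lower genes of the SD pair. The accessory subunits Atp6ap1, at 126, 129, 137 and 140 RPKM, and Atp6ap2, at 89.1, 90.7, 86.0 and 83.9, lay close together in all libraries. Lowest in G93A among the other lysosome genes were Dmxl2, at 27.7, 27.6, 17.4 and 15.8 RPKM, and Wdr7, at 36.2, 36.9, 26.4 and 23.8, both of which assist pump assembly in neurons, with Ncoa7 at 20.6, 20.4, 14.8 and 14.0. None of 8 mannose 6-phosphate sorting genes, which route the enzymes to the lysosome, was 1.5-fold apart in either pair. Of 16 regulators and sensors, 1 was higher in each pair, Tfec, which was at or below 0.0657 RPKM throughout and listed at 0 in WT. The transcription factors stood at 5.07, 4.41, 6.56 and 5.64 RPKM for Tfeb, at 8.34, 7.58, 10.8 and 11.3 for Tfe3, and at 3.16, 3.65, 3.46 and 3.74 for Mitf. Of 8 early endosome and Golgi genes taken as a comparison of organelles, 1 was higher in each pair, Man2a1, at 1.73, 2.05, 3.12 and 3.54 RPKM. Tfec and Man2a1 were named after their values were seen.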

How the data were processed

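RNA of 4 lumbar spinal cord libraries was measured. Per the study's methods the authors aligned 53-base reads to the mouse genome (GRCm38) with STAR and counted them per gene. The deposited table holds 1 value per RefSeq transcript and library, which was read as RPKM from its values, since its header names no unit; the authors' columns of ratios between conditions were not used, and 0 columns of single samples were left out. The value of a gene is the mean over the entries that share its name (23750 entries, 18674 names). Fold calls were made on log2(RPKM + 0.1) at 1.5-fold, with no filter. Read pairs were estimated from the spacing of low values, taking the most frequent, 216 aligned bases, as 1 pair, which gave 36825921 to 38611104 pairs per library. The 216 bases are more than a pair of 53-base reads can cover, so the read length behind the values is uncertain and the estimates depend on it. Shares of transcript windows found in other genes are therefore given for 53 bases and, chosen after the data were seen, for 108 bases. Leaving aside Atp6v0d2 and Atp6v0c, the 41 genes that averaged 1 RPKM or more and had a length held 234 or more. Atp6v0c held between 88.7 and 1050. Cd68 had no length in the tables used. These estimates cover counting only, and the spread between animals is unknown.

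Genes named with all their values were those at least 1.5-fold apart in a genotype comparison or in both SD comparisons averaging 1 RPKM or more, all genes of V-ATPase subunits with more than 1 gene, and the 2 most abundant of each remaining role; among other lysosome genes, the 3 highest and 3 lowest in the vehicle pair, Tcirg1, the accessory subunits and the transcription factors, of which 1 gene is not reported here. Further members were named after their values were seen. The members, lists and motifs were chosen with earlier results of these data known. Alternatives were the pseudocount (1 RPKM or none), a minimum mean of 1 RPKM, a 2-fold line, other ways to combine transcripts, median-ratio scaling, the other WT library as reference, and, chosen after the data were seen, leaving out genes that share over 5% of their 53-base windows with other genes. The fold calls were run on simulated data with counting noise only and planted 2-fold changes. All 200 changed names and 0 of 8647 unchanged names were called. The simulation holds no spread between animals, so it checks the calculation and not the calls made here. The work used pandas 2.3.3, numpy 2.4.6 and matplotlib 3.10.9 on Python 3.11.15. Sequences and positions came from RefSeq (GRCm38.p6) and GENCODE M21.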

Additional observations from a re-analysis of the deposited data

Results flagged for a closer look

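Gaa was singled out because its SD effect had opposite signs in the genotypes and was past 1.5-fold in 1 of them. The log2 fold change of SD against vehicle was 0.24 in WT and -0.64 in G93A, from 54.5 to 64.5 RPKM and from 72.1 to 46.3 RPKM. Opposite signs alone were common, since 28 of 44 genes and 7041 of 12987 names averaging 1 RPKM or more had the same sign, and the change in WT lay within the 1.30-fold that held 95% of names in that pair. Each group holds 1 library, so the difference between these effects was not tested.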

How the results depend on the processing

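Counts and medians were recomputed under 118 combinations of result and alternative. Of these, 101 stayed within the tolerance (1.5 times for a count, 0.08 on the log2 scale for a median) and 17 moved. The V-ATPase median in the WT treatment pair, -0.0021, was 0.0013 without the genes that share windows. With a 2-fold line, 9 genes were higher and 0 lower in the vehicle genotype pair, 10 and 0 in the SD genotype pair, and 0 higher and 1 lower in the G93A treatment pair. With no pseudocount, 2 genes were lower in the vehicle genotype pair, and 2 were higher and 2 lower in the WT treatment pair. With a pseudocount of 1 RPKM, 1 gene was lower in the SD genotype pair, 0 were higher in the G93A treatment pair, and the V-ATPase median in the vehicle genotype pair was -0.046 in place of -0.15. With a minimum mean of 1 RPKM that median was -0.039, and 1 gene was lower in the SD genotype pair. Without the 5 genes that share over 5% of their windows (Atp6v0a4, Atp6v0c, Atp6v1f, Atp6v1g1 and Cd63), 0 were lower in the vehicle genotype pair, 0 lower in the WT treatment pair and 1 lower in the G93A treatment pair. Median-ratio scaling shifted a gene by at most 0.07 on the log2 scale. It turned the sign of Atp6v1f, Atp6v1h, Atp6v0d1 and Neu1 in the vehicle genotype pair, of Atp6v1f and Neu1 in the SD genotype pair, of Atp6v1a, Tpp1 and Lgmn in the WT treatment pair, and of Atp6v1d and Hexa in the G93A treatment pair. No paired analysis was possible because the groups share fewer than 2 replicate numbers. Genotypes were compared within each treatment, and an additive fit of genotype and treatment over the 4 libraries was not run. Depth limits Atp6v0d2 in WT and the 4 genes with a mean below 1 RPKM.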
